A study of Homo sapiens with 4 samples.

Results

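H3K27me3 domains in gene deserts are long runs of H3K27me3 peaks that lie far from any protein-coding gene. They were taken from chromatin immunoprecipitation followed by sequencing (ChIP-seq) in MCF10A, a line of spontaneously immortal human breast epithelial cells that form no tumours. Peaks on chromosomes 1 to 22 were joined across gaps of up to 3000 bp, and a joined run was kept when it was at least 20000 bp long, had at least 25% of its length in peaks and lay at least 50000 bp from every protein-coding gene record of GRCh38. Of 2219 joined runs that met the limits on length and peak share, 835 (37.6%) met the limit on distance, and they are called desert domains here. Another 1088 overlapped a coding gene and 296 lay within 50000 bp of one. The study has 4 libraries from MCF10A grown in mammary epithelial growth medium, all with cholera toxin at 100 ng/ml, and no treatment is contrasted. The marks are methyl groups on histone H3, 3 of them on lysine 27 (H3K27me3) or lysine 4 (H3K4me3) and 2 on lysine 79 (H3K79me2). They have 1 library and 1 peak list each, and the input library has no peak list analysed here. With no replicates no difference has a test or an error, so shares are set side by side as descriptions of these libraries, and read depth is unknown.

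H3K27me3 is written by Polycomb repressive complex 2 and is found over silent developmental genes, where it can spread over long stretches of chromatin. Gene deserts are long intervals without protein-coding genes. Many border genes of developmental regulators and of neuronal adhesion molecules, and some are known to hold distant enhancers of those genes. H3K4me3 marks the start sites of active and poised genes. H3K79me2, written by DOT1L, covers the first part of transcribed genes, so it is not usually found over Polycomb-repressed chromatin.

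The label was checked against the annotation and the libraries. The rule looked at protein-coding records alone, and 424 of the 835 domains (50.8%) overlapped a noncoding record, so the deserts are deserts of coding genes. Of 10 basal mammary epithelial marker genes, 9 had H3K4me3 and 9 had H3K79me2 at a gene end, while both marks were at 0 of 3 immune markers. Of the other marker lists, H3K4me3 was at 0 of 3 endothelial, 1 of 4 fibroblast, 0 of 2 muscle, 2 of 2 neuron and 1 of 2 liver genes, and H3K79me2 at 1 endothelial gene and no other.

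The sequences within these domains that RefSeq names are microRNAs and the start sites of long noncoding RNAs (lncRNAs). Of 11 microRNA genes inside the domains, 9 have sequence in the RefSeq tables of GRCh38.p14. The mature forms below come from 5 of them and show the seed, bases 2 to 8 from the 5′ end, in capitals. The members of the miR-548 family, from chromosomes 6 and 20, are placed together since they share a seed. The others come from the deserts between LSAMP and IGSF11, between GOLIM4 and MECOM and between MMS22L and POU3F2.
hsa-miR-4447: gGUGGGGGcuguuguuu
hsa-miR-551b-5p: gAAAUCAAgcgugggugagacc
hsa-miR-551b-3p: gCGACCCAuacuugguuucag
hsa-miR-2113: aUUUGUGCuuggcucugucac
hsa-miR-548ai: aAAGGUAAuugcaguuuuuccc
hsa-miR-548ag: aAAGGUAAuugugguuucugc

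Of the 117 lncRNA start sites inside the domains that have a start window in the RefSeq table, 3 are shown here because they have H3K4me3 alone, both H3K4me3 and H3K27me3, and H3K27me3 alone. Other starts with CpG dinucleotides had neither mark. Each window runs from 250 bases before to 50 bases from the start on the strand of the gene, and CpG dinucleotides, the letters CG, which read the same on both strands, are in capitals. MIR646HG (chr20:60138242-60138541, plus strand) had H3K4me3 and no H3K27me3 peak in the window, LOC101927452 (chr1:143498433-143498732, plus strand) had both, and LOC105372923 (chr1:218164807-218165106, plus strand) had H3K27me3 alone. The window of LOC101927452 also lies within the record of the pseudogene KMT2CP3, which could share reads with its parent gene.
MIR646HG: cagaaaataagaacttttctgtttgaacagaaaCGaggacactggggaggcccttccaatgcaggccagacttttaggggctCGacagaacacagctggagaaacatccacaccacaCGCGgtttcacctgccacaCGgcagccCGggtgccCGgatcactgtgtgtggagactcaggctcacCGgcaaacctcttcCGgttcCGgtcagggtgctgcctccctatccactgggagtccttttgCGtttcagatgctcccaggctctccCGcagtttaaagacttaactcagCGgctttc
LOC101927452: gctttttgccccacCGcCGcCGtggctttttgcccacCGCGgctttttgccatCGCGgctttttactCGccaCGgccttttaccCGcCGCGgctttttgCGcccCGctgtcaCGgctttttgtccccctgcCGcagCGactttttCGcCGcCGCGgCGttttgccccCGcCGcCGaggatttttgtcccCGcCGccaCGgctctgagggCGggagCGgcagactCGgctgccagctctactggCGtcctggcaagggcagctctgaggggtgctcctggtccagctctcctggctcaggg
LOC105372923: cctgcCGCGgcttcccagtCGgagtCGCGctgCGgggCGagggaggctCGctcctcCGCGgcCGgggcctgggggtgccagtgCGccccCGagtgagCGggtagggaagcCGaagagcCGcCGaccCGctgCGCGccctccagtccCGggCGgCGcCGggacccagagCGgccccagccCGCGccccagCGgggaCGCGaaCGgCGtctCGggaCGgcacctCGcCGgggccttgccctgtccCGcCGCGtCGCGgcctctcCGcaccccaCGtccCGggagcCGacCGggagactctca

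The desert domains covered 33.2 Mb and held 37084 of the 353923 autosomal H3K27me3 peaks (10.5%). The domains were chosen by the positions of the H3K27me3 peaks, so their length, peak share and strength are given as a description. Length ranged from 20006 to 182028 bp with a median of 31702 bp, and 24 domains were at least 100000 bp long. The share of length in peaks ranged from 25.1% to 77.3% with a median of 34.96%, so most domains were broken runs of short peaks rather than solid blocks. A domain held a median of 36 peaks, and the mean peak width per domain had a median of 316 bp. Fold enrichment is the authors' ratio of a peak over the caller's background. The strongest peak of a domain had a median fold of 5.003, ranging from 3.46 to 9.84. Domains within 50000 bp of a coding gene had the same median. Many H3K27me3 peaks shared the same fold, such as 2.69, 3.08, 3.46 or 3.85, so small differences in fold are coarse steps. Of the peaks inside the domains, 40.9% had a q-value of 0.05 or below (−log10 q of at least 1.3), against 25.3% of the other autosomal peaks, and 342 reached a −log10 q of 5. Domains that overlapped a coding gene had a median length of 34329 bp, a median peak share of 37.8% and a median strongest fold of 5.08.

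**Figure D1:**
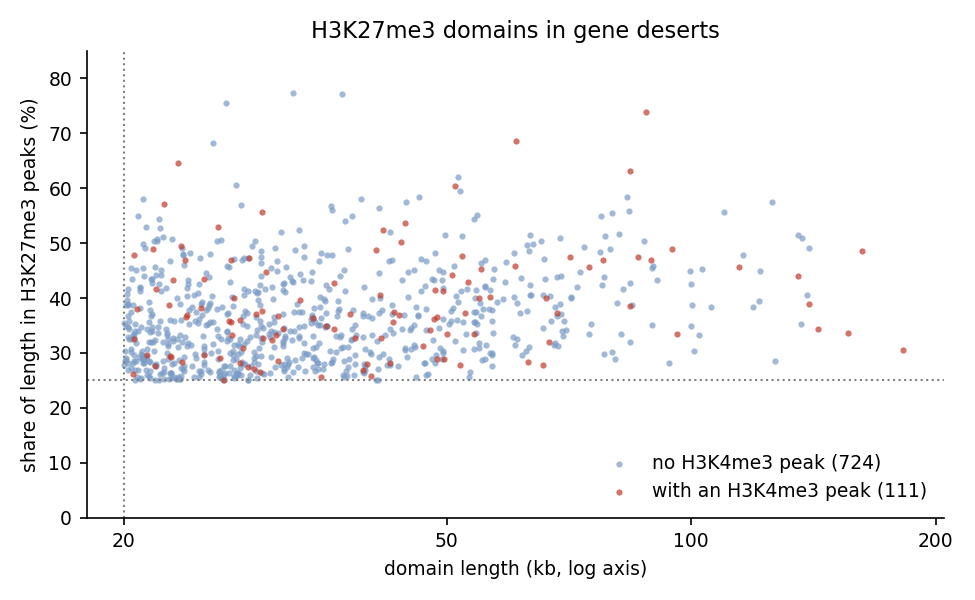
Length (x axis, kb, log scale) against the share of length in H3K27me3 peaks (y axis, %) for the 835 desert domains, 1 point each, with the 111 that overlap an H3K4me3 peak in red and the limits of the rule as dotted lines. The points crowd towards both limits, and both long and densely covered domains are few.

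The limits cut through a continuous range. The members nearest the length limit measured 20006, 20024 and 20040 bp, and the runs nearest outside it 19990, 19967 and 19960 bp. On the distance limit, the nearest members lay 50240, 50833 and 50887 bp from the nearest coding gene, which was ADAMTS16, DRD1 and CAND1 in turn, and the nearest runs outside it lay 49486, 49176 and 48896 bp away. Peak shares were 25.05%, 25.09% and 25.1% inside and 24.95%, 24.8% and 24.8% outside. When the same rule was applied only to peaks with q of 0.05 or below, 155 domains covering 4.58 Mb remained, and 70 of the 835 had at least 50% of their length in one of them. No domain remained with −log10 q or fold of at least 5.

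The longest domain, chr4:111633325-111815352, was 182028 bp long with 180 peaks over 30.6% of its length. It lay 330101 bp from FAM241A, the nearest coding gene. The next in length lay between DLC1 and SGCZ on chromosome 8 (162246 bp, 48.5% in peaks) and between KLHL1 and DACH1 on chromosome 13 (156045 bp, 33.6% in peaks). Other domains among the 10 longest stood beside the cell adhesion genes CNTN5 on chromosome 11 (138976 bp) and CDH4 on chromosome 20 (136517 and 135386 bp), beside GPC5 on chromosome 13 (139492 bp), between POM121L12 and VSTM2A on chromosome 7 (143144 bp), between 2 uncharacterised coding records on chromosome 10 (139680 bp) and between PPIAL4H and NBPF12 on chromosome 1 (136734 bp). These 10 had at most 51.0% of their length in peaks, and 1, the domain on chromosome 1, was at least 50% covered by a domain of the list with q of 0.05 or below. That domain overlapped the pseudogene HYDIN2, which could share reads with its parent gene.

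The most densely covered domains were shorter. A domain near the end of chromosome 15, 98452 bp beyond the olfactory receptor gene OR4F15, was 32299 bp long with 77.3% in peaks, and one on chromosome 9 between ANKRD18B and PRSS3 was 37183 bp long with 77.1% in peaks. The domain on chromosome 9 overlapped pseudogene segments of the T cell receptor beta chain, which could share reads with the locus of that chain on chromosome 7. A domain of 26737 bp inside MIR4300HG, an lncRNA gene between TENM4 and FAM181B on chromosome 11, had 75.5% in peaks. The 60812 bp beside GPC5 on chromosome 13 (chr13:91286673-91347484) had 68.6% in peaks, and 25743 bp beside NR2F2, the gene of a nuclear receptor of mesenchymal and vascular development, had 68.1%. The highest mean fold over peak bases was 5.46, in chr9:63445449-63472579, followed by 5.16 in chr2:92034609-92055204, 4.89 in chr7:65507302-65532409 and 4.79 in chr2:91796836-91818571. The sources used here do not state the handling of reads with several matches in the genome, and both domains on chromosome 2 overlapped an immunoglobulin kappa segment copied outside its locus. None of the 4 was at least 50% covered by a domain of the list with q of 0.05 or below, and each overlapped an H3K4me3 peak of 7.66- to 8.76-fold.

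Domains were unevenly spread over chromosomes. Chromosome 7 had 111, chromosome 8 had 88, chromosome 2 had 78, and chromosome 19 had 0. As a share of the bases between coding genes that lie at least 50000 bp from either gene, 8.52% on chromosome 7 and 6.77% on chromosome 8 were in desert domains, against 3.01% over all autosomes, 0.857% on chromosome 4 and 0.904% on chromosome 12. Lower still were chromosomes 15 (0.678%), 21 (0.453%), 22 (0.320%) and 19 (0%). The whole H3K27me3 list followed a related order. There were 196 peaks per Mb on chromosome 7 and 172 on chromosome 8, counted to the end of the last coding gene, against 57.0 on chromosome 4. Chromosome 12, with 125 peaks per Mb, held 12 domains. The part of overall peak density in the number of domains was not tested.

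**Figure D2:**
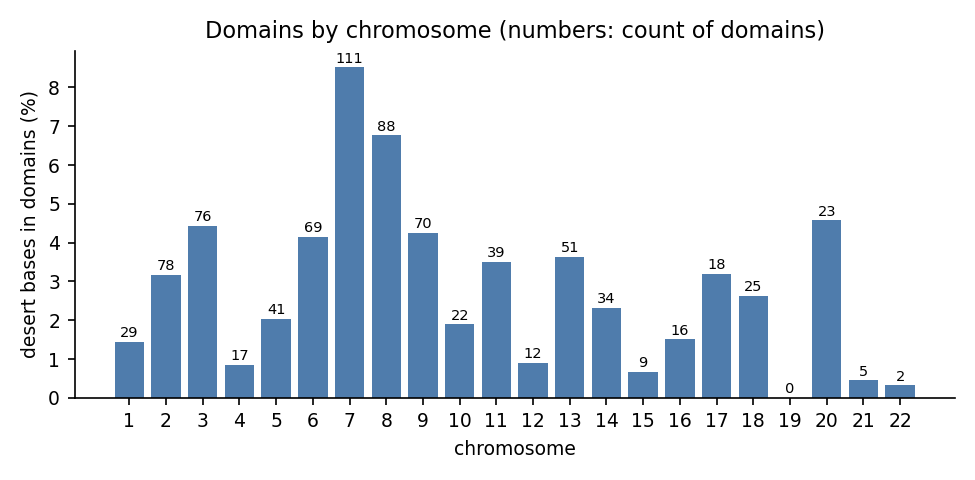
Share of desert bases in H3K27me3 domains (y axis, %) for each autosome (x axis), where desert bases lie between neighbouring coding genes and at least 50000 bp from both, gaps in the assembly included. The number over each bar is the count of domains, from 111 on chromosome 7 to 0 on chromosome 19.

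Many domains shared a desert. Of the 2318 stretches of at least 120000 bp between neighbouring coding genes, the shortest that can hold a domain, 272 (11.7%) held at least 1, and 8 further domains lay beyond the outermost coding gene of a chromosome. One domain was found in 135 of these stretches, while 51 stretches with 5 or more held 454 of the domains. A domain was present in 4.52% of stretches under 300000 bp and in 35.4% of those of 2 Mb or more. Per Mb of bases at least 50000 bp from both genes, the 5 size classes held 0.576 to 0.958 domains, lowest in the longest class, so the rise with size went with the room in a stretch. Successive domains in a stretch were separated by a median of 27813 bp.

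The stretch with the most domains ran from KCNV1, the gene of a modifier subunit of potassium channels, to CSMD3, which encodes a large neuronal membrane protein, on chromosome 8. It was 2.25 Mb long and held 26 domains with 58.1% of its length. On the other side of CSMD3, the 1.97 Mb up to TRPS1, the gene of a GATA-type repressor active in breast epithelium, held 17 domains with 50.5% of the length. CSMD3 therefore stood between 43 desert domains, and H3K27me3 peaks covered 92.4% of the window at one of its ends, at 4.19-fold. KCNV1 had H3K27me3 over 80.7% of a window, while TRPS1 had no H3K27me3 peak at its ends, H3K4me3 over 100% of a window (14.3-fold) and H3K79me2 over 93.0% of the inward window (4.09-fold). The last domain before TRPS1 ended 560022 bp from it.

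Between EPHA7, which encodes an ephrin receptor of axon guidance, and MANEA on chromosome 6, 22 domains took up 40.9% of 2.16 Mb. EPHA7 had H3K27me3 over 84.0% of a window and no active mark, and MANEA, the gene of a Golgi mannosidase, had H3K4me3 (15.9-fold) and H3K79me2 (3.10-fold) and no H3K27me3. The stretch from ANKRD7 to KCND2, the gene of a potassium channel, on chromosome 7 held 16 domains, and H3K27me3 covered 60.25% of a window at KCND2. From KLHL1 to DACH1 on chromosome 13, 14 domains took up 58.8% of 1.33 Mb. DACH1, which encodes a transcriptional repressor of retinal and limb development, had H3K27me3 over 96.05% of a window at 6.93-fold together with H3K4me3 at 3.98-fold, and KLHL1 had H3K27me3 over 45.2%. The stretch from JRKL to CNTN5 on chromosome 11 also held 14 domains, over 20.7% of its length, and CNTN5, the gene of a neuronal contactin, had H3K27me3 over 72.05% of a window.

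**Figure D3:**
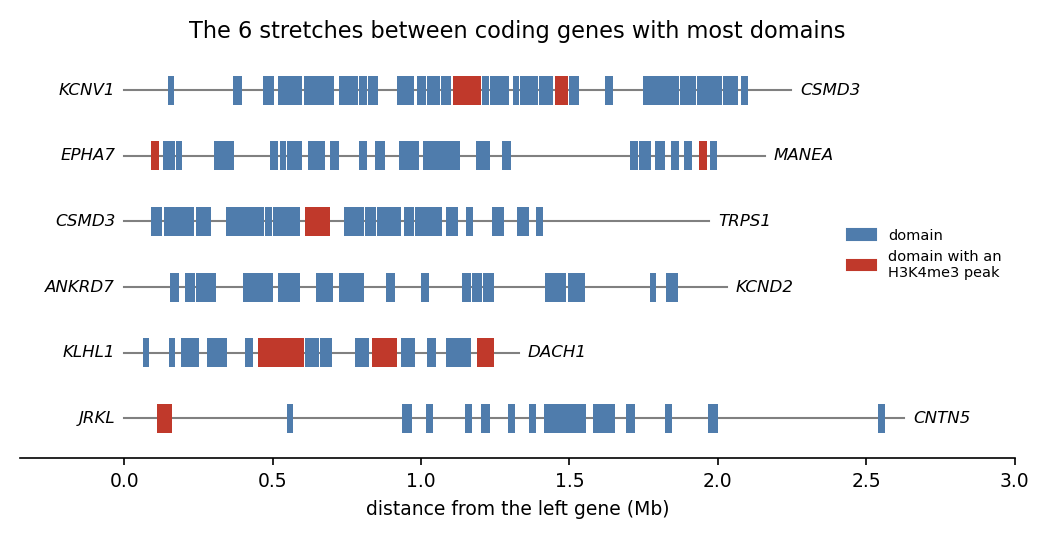
The 6 stretches between neighbouring coding genes that hold most desert domains, each drawn to scale from its left gene (x axis, Mb), with domains as boxes and those overlapping an H3K4me3 peak in red. Both stretches beside CSMD3 are filled with domains over at least 50.5% of their length, and the part next to TRPS1 holds none.

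The coding genes on either side of the domains, 510 in all, were examined at their own ends, which the rule did not use, although the peaks come from the same H3K27me3 library. Within 1000 bp of an end of the record, a gene was called for a mark if its peaks took up 25% or more of that window (for H3K79me2, of the 5000 bp inward or the whole gene if shorter). H3K27me3 was called at 153 of the 510 (30.0%), against 8.79% of all 19126 autosomal coding genes and 10.9% of the 3899 other genes that border a stretch of at least 100000 bp. The share was higher among flanking genes than among the other bordering genes in 18 of the 18 chromosomes with at least 10 flanking genes, from 16.7% on chromosome 10 to 44.4% on chromosome 11. On chromosome 7 it was 31.6% and on chromosome 8 37.5%, within the range of the other chromosomes. With peaks of q of 0.05 or below, the share was 20.2% of flanking genes against 5.51% of all genes. At the RefSeq start site, known for 381 of the flanking genes, it was 22.6% against 6.57% of all genes with one.

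The difference was present at every stretch length. H3K27me3 was at 28.9% to 38.1% of genes bordering a stretch with a domain in each of 5 size classes, and at 6.30% to 14.2% of genes bordering a stretch without one. The share was lower the farther the nearest domain lay. Of the 168 genes with their nearest desert domain under 100000 bp away, 36.9% had H3K27me3, of 156 genes at 100000 to 200000 bp 30.8%, of 100 genes at 200000 to 500000 bp 28.0%, of 47 genes at 500000 bp to 1 Mb 23.4%, and of 39 genes at 1 Mb or more 10.3%. Active marks were less frequent at flanking genes, with H3K4me3 at 290 (56.9%) against 68.6% of all genes and H3K79me2 at 192 (37.6%) against 51.6%. Both marks differed less from the other bordering genes, which had H3K4me3 at 66.8% and H3K79me2 at 47.6%. By stretch length they were not lower throughout, since at 2 Mb or more H3K4me3 was at 57.4% of genes beside a stretch with a domain and 57.5% beside one without, and at 500000 bp to 1 Mb H3K79me2 was at 41.3% and 41.9%.

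**Figure D4:**
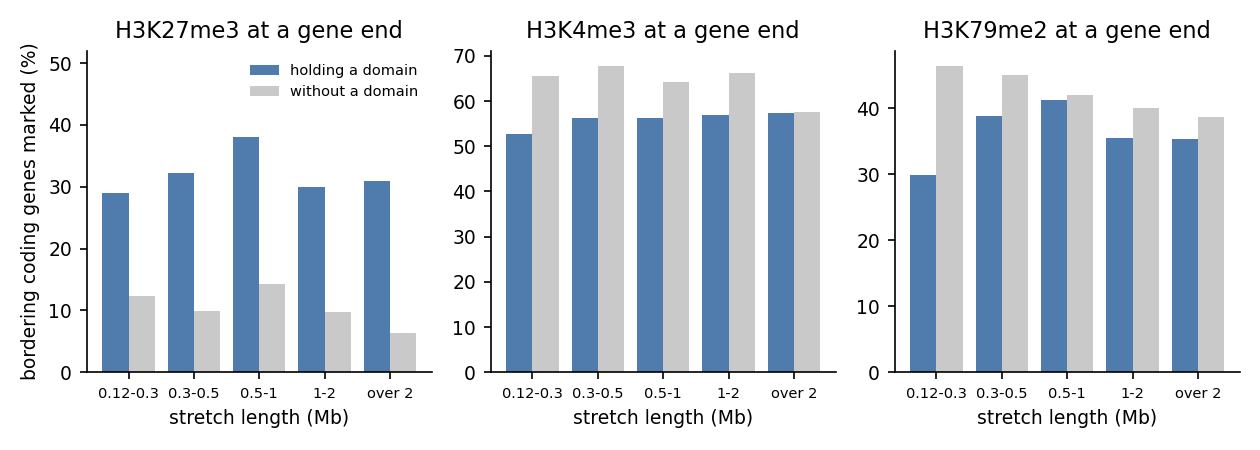
Share of coding genes (y axis, %) with H3K27me3, H3K4me3 or H3K79me2 at a gene end, for genes bordering a stretch with a desert domain (blue) or without one (grey), by the length of the stretch (x axis, Mb). The blue bars for H3K27me3 stand between 28.9% and 38.1% and the grey ones between 6.30% and 14.2%.

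Counted by domain, 523 of the 835 (62.6%) had H3K27me3 at a gene on at least 1 side and 106 on both. Domains of the same stretch share its genes, so stretches with many domains weigh more in these counts. The like share for stretches without a domain was not counted. Where it was on 1 side only, 220 of 411 domains lay closer to the marked gene, 53.5%. By stretch, 24 of the 272 had H3K27me3 at the genes of both sides, 128 at 1 side and 120 at neither, and in 82 H3K27me3 on one side faced H3K79me2 on the other. A desert domain was therefore often far from, and not always beside, a coding gene with the same mark.

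The genes around the domains included many developmental and neuronal genes. Among all coding genes, 2.67% flanked a desert domain, and among genes bordering a stretch of at least 100000 bp 11.6% did. Of 146 autosomal genes on a list of developmental transcription factors, 121 bordered such a stretch and 36 flanked a domain, 29.8% of the 121. For cadherins and protocadherins 11 of 24 bordering genes flanked a domain (45.8%), and for synaptic adhesion genes 18 of 45 (40%). Axon guidance genes gave 7 of 32 (21.9%) and potassium and sodium channels 7 of 27 (25.9%). Glutamate and GABA receptors gave 3 of 25 (12%), which is near the 11.6% of all bordering genes. Of the 22 basal epithelial genes, 6 bordered a stretch of at least 100000 bp. Among those 6, 1 flanked a domain, the desmocollin gene DSC3, with H3K4me3 of 18.5-fold and H3K79me2 at its ends. Housekeeping genes gave 0 of 2 bordering genes, olfactory receptors 2 of 29 (OR4F15 and OR4E1, both with H3K27me3) and genes named ZNF with a number 4 of 84 (ZNF622, ZNF322, ZNF92 and ZNF658, all with both active marks and no H3K27me3). These counts take no account of the length of the stretch beside each gene.

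The developmental factors beside the domains differed in their marks. Of the 36, 15 had H3K27me3 at an end, 20 had H3K4me3 and 7 had H3K79me2. Among developmental factors that border a stretch but flank no domain, 25 of 85 had H3K27me3. In the 36, H3K27me3 stood without an active mark at 8 genes, beside H3K4me3 alone at 6 and beside both active marks at 1, and 8 genes had no call. Next to DACH1, H3K27me3 covered most of a window at POU3F2, the gene of a neuronal POU factor (91.25%, 6.54-fold), and at HEY2, a Notch target in heart and vessels (89.15%, 7.81-fold). The 7 with H3K79me2 were ZFPM2, which also had H3K27me3, and NR2F2, SOX9, NR4A2, IRX1, ISL1 and MSX2, whose windows had no H3K27me3 peak and H3K4me3 of 17.1- to 20.7-fold. ISL1, the gene of a LIM homeodomain factor, had 8 desert domains in the stretches on its sides, the nearest 400309 bp away, and NR2F2 had 5, the nearest 60029 bp away. Domains thus lay beside genes with active marks too, and the nearest one to IRX1 lay 1440325 bp away.

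Adhesion, guidance and channel genes, which build and wire neurons, also stood around the domains. Of the 18 synaptic adhesion genes, 10 had H3K27me3 and 1 had H3K79me2. Among list members that border a stretch but flank no domain, H3K27me3 was at 7 of 27 synaptic adhesion genes, 3 of 13 cadherins, 5 of 25 axon guidance genes, 9 of 20 channels and 6 of 22 glutamate and GABA receptors. The receptor phosphatase gene PTPRD had H3K27me3 over 100% of a window (7.52-fold) with 12 domains around it, the adhesion receptor gene ADGRB3 over 95.0% (6.18-fold) and the lipoprotein receptor gene LRP1B over 94.95% (6.08-fold) with 9 domains. Of the 11 cadherin genes, 5 had H3K27me3, led by PCDH20 (62.95%) and PCDH17 (62.05%), followed by CDH8, CDH7 and CDH19 at 26.05% to 31.2%, and 3 had H3K79me2. Of the 7 axon guidance genes, 5 had H3K27me3, with SEMA3E (73.8%) and EPHA4 (48.7%) after EPHA7 and ROBO1 (29.2%) next, while SEMA3A and SEMA3D had none at their record ends. At its RefSeq start site, which lies inside the record, SEMA3D had H3K27me3 over 82.9% of the window. KCNB2 (70.0%), KCNJ3 (44.75%) and KCNJ2 (34.2%) joined KCNV1 and KCND2 among the channels, and the glutamate receptor genes GRIN3A (45.2%) and GRM3 (32.1%) had the mark while GRIK2 had H3K4me3 of 13.9-fold without it. At q of 0.05 or below, 9 of the 10 synaptic adhesion genes, 13 of the 15 developmental factors, 4 of the 5 channel genes, both glutamate receptor genes, 2 of the 5 cadherin genes, 2 of the 5 axon guidance genes (EPHA7 and SEMA3E) and 0 of the 2 olfactory receptor genes kept a call.

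H3K4me3 and H3K79me2 come from other libraries and were not used to choose the domains. An H3K4me3 peak overlapped 111 of the 835 desert domains (13.3%), against 20.8% of all 2219 domains and 26.4% of those overlapping a coding gene. H3K79me2 overlapped 65 (7.78%), against 10.4% of all domains. Both were found in 18 domains. The peaks were mostly weak, since H3K4me3 of q of 0.05 or below was found in 44 domains and of −log10 q of at least 5 in 21, and for H3K79me2 the numbers were 11 and 0. By length, H3K4me3 peaks covered 0.223% of the bases of desert domains and 0.960% of the other desert bases, while H3K79me2 covered 0.0879% and 0.638%. Both marks covered a smaller share inside the domains than outside them on each of the 14 chromosomes with at least 20 domains. Gaps in the assembly are counted among the other desert bases, so their values are lower bounds. The 155 domains from peaks with q of 0.05 or below had H3K4me3 over 0.194% and H3K79me2 over 0.0362% of their bases.

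H3K79me2 changed over a short distance at the edge of a domain, and H3K4me3 less clearly. From 50000 to 10000 bp outside, H3K79me2 covered 0.443% to 0.647% of bases and H3K4me3 0.447% to 0.671%. H3K79me2 covered 0.647% of the bases in the bin of 5000 bp that starts 10000 bp outside the edge, 0.551% at 5000 to 10000 bp, 0.245% in the last 5000 bp and 0.128% in the first 5000 bp inside. H3K4me3 covered 0.790% at 5000 to 10000 bp outside and 0.681% in the last 5000 bp, and 0.348% and 0.243% in the 2 bins inside. For H3K27me3 the edge is set by the rule. Farther out, between 10000 and 50000 bp from the edge, H3K27me3 covered 20.1% to 21.0% of bases, against 2.35% of all desert bases outside domains. The 2.35% leaves out every desert domain, whereas 50000 bp beyond an edge can reach a neighbouring one. Successive domains in a stretch lay a median of 27813 bp apart, and their part in the difference was not tested.

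**Figure D5:**
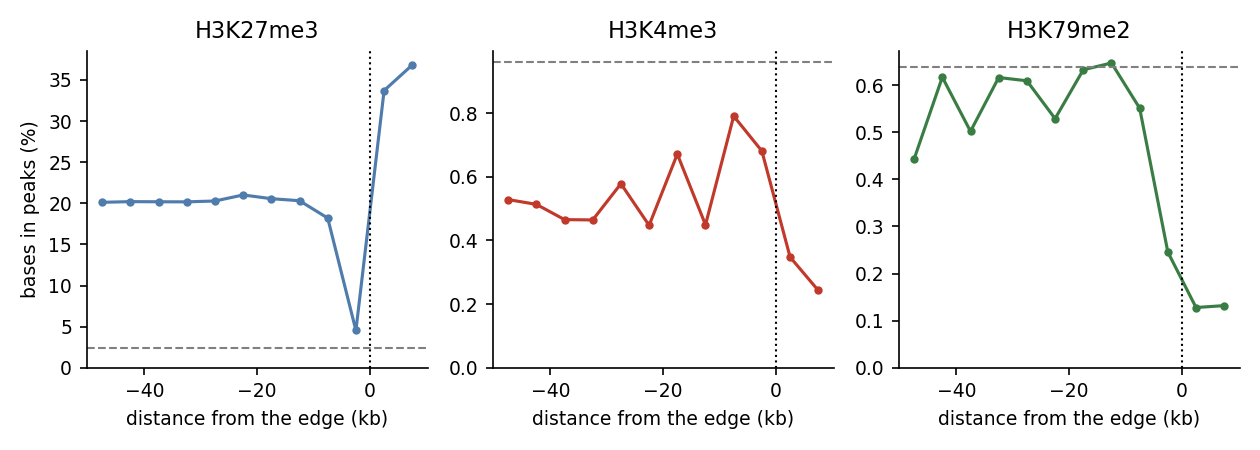
Share of bases in peaks (y axis, %) per 5000-bp bin (x axis, kb, negative outside), running from 50000 bp beyond to 10000 bp within both edges of the 835 desert domains, for the 3 marks on separate scales. Dashed lines give the share in all other desert bases, 2.35% for H3K27me3, 0.960% for H3K4me3 and 0.638% for H3K79me2, and both active marks are lowest inside the edge. The dashed lines leave out every desert domain, whereas the span outside an edge can reach a neighbouring one.

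The strongest H3K4me3 peak touching a desert domain was one of 2611 bp and 18.8-fold at chr4:180057446-180060056, which overlapped no gene record and covered one edge of a domain of 22416 bp that lay 1367326 bp from TENM3. The next, of 6554 bp and 17.0-fold at chr13:91346920-91353473, overlapped MIR17HG, the host gene of the miR-17-92 cluster of microRNAs that promote proliferation. The densely covered domain of 60812 bp beside GPC5 ended 203 bp before the record of MIR17HG, so the peak and the domain met over 565 bp. GPC5, which encodes a glypican, had H3K27me3 over 80.3% of a window on the other side. A peak of 12.5-fold lay in a domain between PARP8 and ISL1, with no gene record under it, and peaks of 11.5- and 10.9-fold overlapped the pseudogenes INTS4P1 and ANKRD20A2P, which could share reads with their parent genes. The strongest H3K79me2 peak in a domain had 3.56-fold and lay inside the lncRNA gene MIR99AHG on chromosome 21, where 5 such peaks were found. The others of over 3-fold lay near ANTXRL, within LOC101929963 and LINC01081, and between POM121L12 and VSTM2A.

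Records of lncRNAs overlapped 299 of the domains (35.8%), pseudogenes 149, antigen receptor segments 18 and microRNA genes 11. By length, lncRNA records covered 23.2% of the bases of the domains and 22.04% of the other desert bases, which is near the background, and pseudogenes covered 3.85% and 1.73%. Of the 18, 11 lay on chromosome 14, in the loci of the T cell receptor alpha chain (TRA) and the immunoglobulin heavy chain (IGH), 3 on chromosome 2, 1 on chromosome 7, 1 on chromosome 22 and the others on chromosome 9. These loci count as deserts here because their segments are not recorded as protein-coding. The pseudogene EGFEM1P on chromosome 3 overlapped 10 domains, the most of any record, and MIR4300HG overlapped 9. H3K4me3 was found in 52 of the 299 domains with an lncRNA record (17.4%) and in 59 of the 536 without (11.0%). Longer domains have more room for both, and these shares take no account of length.

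The start sites of lncRNAs inside the domains rarely had active marks. Of 117 start windows of 300 bases, 4 overlapped an H3K4me3 peak (3.42%), against 384 of 3320 lncRNA starts elsewhere at least 50000 bp from coding genes (11.6%) and 30.4% of all 11145 autosomal lncRNA starts. H3K79me2 was at 0 of the 117, at 62 of the 3320 elsewhere in deserts (1.87%) and at 13.9% of all. Windows with at least 50% G and C and an observed-to-expected CpG ratio of at least 0.6 are called CpG-rich. In the domains 5 of 117 were (4.27%), against 6.60% of lncRNA starts elsewhere in deserts, 24.2% of all lncRNA starts and 47.1% of the start windows of all genes. Of the 5 CpG-rich starts 3 had H3K4me3, and of the other 112 starts 1 had it (0.893%). Elsewhere in deserts H3K4me3 was at 50.2% of CpG-rich and 8.84% of other lncRNA starts.

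The starts named here were chosen after the values of all 117 were seen. MIR646HG, with 13 CpG dinucleotides in the window printed above and a CpG ratio of 0.564, had the strongest peak at 9.75-fold, in a domain of the stretch between CDH26 and CDH4. LOC101927452 had H3K4me3 of 4.46-fold with H3K27me3 of 8.42-fold, and LOC124901662 of 2.77-fold with H3K27me3 of 3.52-fold. LOC105372923, with 46 CpG dinucleotides and 79.3% G and C, had H3K27me3 of 5.84-fold and no H3K4me3, as did LOC124903904 with 15 CpG dinucleotides and H3K27me3 of 3.85-fold.

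MicroRNA genes lay in 11 domains, and 3 of their records overlapped an H3K27me3 peak. Peaks covered 37.7% of all domain bases, and the rule joins them across gaps of up to 3000 bp. Any record inside a domain therefore lies near a peak, and the distances below are a description. The share of microRNA genes elsewhere was not counted. MIR124-1, one of the genes of the neuronal microRNA miR-124, overlapped a peak of 3.93-fold in a domain of 21929 bp with a mean fold of 4.26 on chromosome 8, between TNKS and MSRA, and MIR124-2, a further gene of miR-124 on the same chromosome, lay 50 bp from a peak in a domain of 35506 bp. MIR4447 (chr3:116850277-116850367) overlapped a peak of 3.46-fold in a domain of 56438 bp, 366004 bp from LSAMP, and MIR548AG2 (chr20:60564562-60564625) one of 2.98-fold between CDH26 and CDH4. MIR551B (chr3:168551854-168551949) lay 188 bp from a peak, near the end of a domain of 89299 bp with 47.0% in peaks between GOLIM4 and MECOM. MIR2113 (chr6:98024531-98024621) lay 60 bp from a peak, in a domain 727267 bp from MMS22L and 766430 bp from POU3F2. MIR548AI (chr6:99124609-99124696) lay 1205 bp from the nearest peak. Among the 9 microRNA genes with sequence, which leave out both miR-124 genes, 1 seed was shared by different domains. It was AAGGUAA, printed in capitals for hsa-miR-548ai and hsa-miR-548ag. MIR4652, MIR4300, MIR5011 and MIR548AD were inside domains of 27273 to 67921 bp, each outside the peaks by 5 to 256 bp. An H3K4me3 peak was found in the domains of MIR4447 and MIR551B and an H3K79me2 peak in none of the 11.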

How the data were processed

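The H3K4me3, H3K27me3 and H3K79me2 peak lists of MCF10A were used, 1 library each. Bowtie2 2.3.1, MACS2 2.1.1 and hg38 were used, per the submitters' processing notes, and the peak names carry a p threshold of 0.05. Peaks were called per library. The sources used here do not state whether the input served as control, nor the handling of duplicates. Per the deposited layout, the authors' fold is the ratio of a peak's signal to what MACS2 took as local background, and the deposited −log10 q is the caller's own value. Depth is unknown, so no interval or floor is given. Genes, start windows and microRNAs came from RefSeq tables of GRCh38.p14, of the build of the peaks. The start table held 15101 of 19126 autosomal coding genes. No genome sequence was used.

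Peaks were joined and counted with Python 3.11.15, numpy 2.4.6 and pandas 2.3.3, and joining, coverage and distances were checked on simulated intervals. Overlap means at least 1 bp. No test was made, since each mark has 1 library. The members, the 8 gene lists and the 2 symbol classes were chosen with earlier results of these data known. By the rule for naming, domains were the 10 longest, the 10 with the highest mean fold or peak share, those with the strongest active marks and those with microRNAs, with the fullest stretches and, per list, up to 4 marked genes. Others were named after their values were seen. Of the 10 by fold or share, the leading ones are given. Settings tried were other gaps, lengths, peak shares, distances, windows and peak thresholds. Some members that the rule names are not reported here.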

Additional observations from a re-analysis of the deposited data

Results flagged for a closer look

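Chromosome X was outside the rule. Joined and filtered in the same way, its 39279 H3K27me3 peaks gave 125 domains, of which 17 lay at least 50000 bp from every coding gene and covered 0.443 Mb. The X chromosome had 252 H3K27me3 peaks per Mb to its last coding gene, more than any autosome, of which chromosome 7 had the most at 196. The 17 domains had a median length of 23506 bp and a median of 27.03% in peaks, and 3 overlapped an H3K4me3 peak. The signal is listed here because it lies in data that the comparisons above do not use.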

How the results depend on the processing

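The number of desert domains, 835, depended on the joining, the peak threshold, the limits on length and peak share and the biotypes of the gene records. It was 97 with gaps of up to 1000 bp, 155 with peaks of −log10 q of at least 1.3, 0 with −log10 q or with fold of at least 5, 1715 and 184 with a minimum length of 10000 and 50000 bp (median lengths 19528 and 65646 bp), 61 with at least 50% in peaks and 171 at 50000 bp from records of any biotype. With gaps of up to 5000 bp it was 618, and at distances of at least 20000 and 100000 bp from coding genes it was 985 and 680. The share with H3K4me3, 13.3%, was 5.27% and 2.51% with H3K4me3 peaks of −log10 q of at least 1.3 and 5, 19.7% with gaps of up to 5000 bp and 10.3% in domains from H3K27me3 peaks of −log10 q of at least 1.3. The share with H3K79me2, 7.78%, was 1.32% and 0% with H3K79me2 peaks of −log10 q of at least 1.3 and 5, 3.09% and 12.3% with gaps of up to 1000 and 5000 bp, and 3.87% in those stricter domains. The share overlapping a noncoding record, 50.8%, was 25.4% for records wholly inside, 39.2% without pseudogenes, 44.3% and 56.3% with gaps of up to 1000 and 5000 bp, and 41.9% in the stricter domains. The share with a marked flanking gene, 62.6%, was 44.4% with at least 50% of the window and 77.8% with at least 1 bp, 50.4% with peaks of −log10 q of at least 1.3, 38.8% at the RefSeq start site, and 66.0% and 57.0% with gaps of up to 1000 and 5000 bp. Per gene, 4.32% of all autosomal coding genes were called with at least 50% of the window and 23.4% with at least 1 bp. With peaks of −log10 q of at least 1.3 it was 5.51%. Alternatives without chromosomes 7 and 8, at the start site and in the stricter domains were chosen after seeing the data. Without chromosomes 7 and 8 the 4 shares were 14.6%, 8.96%, 52.2% and 59.3%. The causes were not tested. No paired analysis was possible because each mark has 1 library. Depth is unknown, so its limit on weak peaks could not be given beyond the repeated fold values named above.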
